A study of Mus musculus with 8 samples.

Results

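RNA of 10 genes of the cytochrome P450 2c family was examined in livers of db/db mice: Cyp2c29, Cyp2c37, Cyp2c38, Cyp2c39, Cyp2c44, Cyp2c50, Cyp2c54, Cyp2c55, Cyp2c68 and Cyp2c70. They were chosen by symbol, 10 of 41388 features in the deposited tables, and Cyp2c44 is named Cyp2c23 in the annotation used. The db/db strain carries a defective leptin receptor, and its mice grow obese and develop diabetes. The libraries came from 4 mice given an adenovirus encoding green fluorescent protein (AdGFP) and 4 given an adenovirus encoding NAMPT (AdNAMPT), the rate-limiting enzyme of NAD salvage, and the study asked how raised hepatic NAMPT alters the diabetic liver. Every mouse was a db/db littermate of the labelled strain C57B/6J, was randomised at 5 weeks, received its virus through the tail vein and was 10 weeks old. The genotype field reads control for AdGFP and NAMPT overexpression for AdNAMPT, and the series gives 4 to 5 weeks of overexpression. For adipose tissue of db/db mice the paper gives a shorter time after the virus. The promoter of the vectors is not given in the sources used here, and the virus was given systemically, so that cells other than hepatocytes could also take it up.

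CYP2C enzymes sit in the endoplasmic reticulum of hepatocytes, most densely around the central vein, and take electrons from NADPH through P450 oxidoreductase and cytochrome b5. Several mouse members place an epoxide on arachidonic acid, giving epoxyeicosatrienoic acids, which relax vessels and dampen inflammation, or on linoleic acid, giving the epoxides known as leukotoxins. Soluble epoxide hydrolase, encoded by Ephx2, turns these epoxides into diols. The nuclear receptors CAR and PXR, with HNF4A, are known regulators of the family. Cyp2c70 is set apart by function, since it hydroxylates bile acids to form the muricholic acids of rodents.

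Libraries held 12006713 to 19879814 counts, and the smallest amount treated as detected, 3 counts, lay between 0.151 and 0.250 CPM (counts scaled to a library total of 1e+06). CPM values below were also scaled by TMM factors, which correct each library for its overall composition, unless they are called deposited CPM. Nampt, which checks the labels, showed a log2 fold change of 0.08 (SE 0.15; limma adjusted p 0.915), so that AdNAMPT below means the libraries labelled AdNAMPT. All 8 hepatocyte markers examined were tested, and their summed level was 109530 to 131870 CPM in AdGFP and 99734 to 126995 CPM in AdNAMPT. According to the paper, males were used in its db/db studies, and the sex of single libraries was not tested. AdNAMPT replicate 1 stood apart in genes that differ between male and female liver. The mean log2 CPM of the 13 tested genes of a female-biased list was 2.68 in that library and 5.33 to 5.72 in the other 7, whereas that of the 12 tested genes of a male-biased list was 7.26 against 4.70 to 5.45. Limma gave this library a weight of 0.440, the lowest of the 8, and Cyp2c estimates that moved by over 1.5 times without it are also given without it. Neither list held a gene past the adjusted threshold by limma. At an unadjusted limma p under 0.05, 1 of 13 tested female-biased genes was higher and 2 lower (median log2 fold change -0.42, or -0.084 without AdNAMPT replicate 1). Of 12 tested male-biased genes 1 was lower at that p (median 0.13, or 0.0082 without AdNAMPT replicate 1).

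The 10 genes lie on chromosome 19 (GRCm38, coordinates of the deposited files), and 9 of them form a cluster. In order, these are Cyp2c55 (39007019 to 39042693, plus strand), Cyp2c29 (39269405 to 39330713, plus), Cyp2c38 (39389556 to 39463075, minus), Cyp2c39 (39510862 to 39568529, plus), Cyp2c68 (39688834 to 39741054, minus), Cyp2c37 (39992424 to 40012243, plus), Cyp2c54 (40037941 to 40073811, minus), Cyp2c50 (40089688 to 40113950, plus) and Cyp2c70 (40153353 to 40187333, minus). Cyp2c44 (44005022 to 44029247, minus) lies outside the cluster. All are annotated as protein coding.

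Near-identical neighbours share sequence, which bears on how well unique reads separate them. The transcripts of Cyp2c37 and Cyp2c50 were 95.8% identical, those of Cyp2c37 and Cyp2c54 92.7%, those of Cyp2c50 and Cyp2c54 92.2%, and those of Cyp2c38 and Cyp2c39 93.6%. Reads were 50 bases long, and the share of 50-base windows found exactly in a transcript of another gene was 30.1% for Cyp2c37, 30.7% for Cyp2c50, 25.7% for Cyp2c54 and 43.3% for Cyp2c68. It was 12.0% for Cyp2c39, 7.45% for Cyp2c38, 2.08% for Cyp2c29 and 1.13% for Cyp2c55, and 0 for Cyp2c44 and Cyp2c70. Reads from shared windows cannot be assigned to 1 gene, so levels of Cyp2c37, Cyp2c50, Cyp2c54 and Cyp2c68 are less certain than those of Cyp2c44 and Cyp2c70. Exons of Cyp2c29 overlap the pseudogene Cyp2c53-ps on the same strand, and those of Cyp2c55 overlap Gm23800 on the opposite strand; whether the counting used strand is not given in the sources used here.

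The likeness of Cyp2c37 and Cyp2c50 extends upstream of the transcripts, and their sequences are shown because both genes had among the larger group differences below. The RefSeq promoter table (GRCm38.p6), which covers 250 bases before and 50 after a gene's start, held 8 of the 10 members, all but Cyp2c54 and Cyp2c44. Over these 300 bases Cyp2c37 and Cyp2c50 were 86.3% identical. Their last 150 bases before the start, chr19:39992274-39992423 and chr19:40089529-40089678, both on the plus strand, are given 5′ to 3′ with capitals at the bases that differ in an alignment of 132 matching bases, 12 substitutions and 12 gap bases.
Cyp2c37: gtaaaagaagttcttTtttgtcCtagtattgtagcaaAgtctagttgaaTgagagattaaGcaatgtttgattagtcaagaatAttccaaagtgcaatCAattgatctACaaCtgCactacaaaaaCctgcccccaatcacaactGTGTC
Cyp2c50: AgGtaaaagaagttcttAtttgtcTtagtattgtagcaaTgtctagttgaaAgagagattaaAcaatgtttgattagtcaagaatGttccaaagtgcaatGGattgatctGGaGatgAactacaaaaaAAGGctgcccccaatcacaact

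Cyp2c68 and Cyp2c70 are shown because they alone among the 8 members carried CAAAGTCCA, letters of the HNF4A type, which 0.475% of the 32851 promoters in the table hold on either strand. It is not particular to them, since 4 of the 5 other Cyp2c genes in the table (Cyp2c40, Cyp2c65, Cyp2c67 and Cyp2c69) carried it too. The stretches are chr19:39741102-39741251 for Cyp2c68 and chr19:40187334-40187436 for Cyp2c70, both on the minus strand, upstream of the annotated transcripts, with capitals at the matches. In Cyp2c70 an AGGTCA, the half-site of nuclear receptors, lies just before it.
Cyp2c68: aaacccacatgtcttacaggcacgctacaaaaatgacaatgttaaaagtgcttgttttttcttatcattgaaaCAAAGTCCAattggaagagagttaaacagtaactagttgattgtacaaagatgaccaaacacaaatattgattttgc
Cyp2c70: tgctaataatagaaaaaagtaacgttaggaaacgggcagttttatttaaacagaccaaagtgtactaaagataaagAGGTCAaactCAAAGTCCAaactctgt
AGGTCA was found in 3 of 8 members (Cyp2c29, Cyp2c39 and Cyp2c70), in 0 of the 5 other Cyp2c genes and in 16.3% of all promoters. TATAAA was found in 5 of 8 members (Cyp2c55, Cyp2c29, Cyp2c38, Cyp2c39 and Cyp2c70) and in 13.6% of all promoters. It is not particular to the members, since 5 of the 5 other Cyp2c genes carried it too. Cyp2c39 has 2 windows in the table. Its AGGTCA match came from the one that lies far upstream of the start in the deposited files. Its TATAAA match, with its first base at -3 from the start, came from the other window. TTCNNNGAA, the core of a STAT site, was in 0 of 8 members and in 8.3% of all promoters, and a pair of AGGTCA letters 4 bases apart, of the kind CAR and PXR bind, was in 0 of 8 and in 0.0152%. Matches on both strands were counted, and they describe letters in these windows only.

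Levels can be compared between genes per length, as RPKM, which is CPM per kilobase of exons. Over the 8 libraries Cyp2c29 had the highest mean at 830.3 RPKM (574.8 to 973.0), followed by Cyp2c50 at 443.0 RPKM and Cyp2c54 at 312.9 RPKM. Cyp2c37 had a mean of 233.2 RPKM, Cyp2c44 of 120.4, Cyp2c70 of 116.9 and Cyp2c68 of 92.1. Cyp2c38 was at 45.8 RPKM, Cyp2c39 at 11.5 and Cyp2c55 at 7.44. Only the steps from Cyp2c68 (66.0 to 122.1 RPKM) to Cyp2c38 (30.2 to 57.2 RPKM) and from Cyp2c38 to Cyp2c39 (5.27 to 14.6 RPKM) separated the ranges of neighbours in this order over the 8 libraries.

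Estimates for most Cyp2c members were below 0 in AdNAMPT relative to AdGFP, but none passed the adjusted threshold by limma, and on the deposited CPM the groups overlapped for each of the 10. All 10 genes passed the filter on low counts, and 9 of 10 had a lower estimate in AdNAMPT, where 49.6% of the 12270 tested genes did. The median log2 fold change of the 10 was -0.35, and that of all tested genes was 0.0015. By limma, 0 of 10 members passed an adjusted p of 0.05, against 34 of all tested genes (0.277%), while DESeq2 passed 1, Cyp2c54, and edgeR's quasi-likelihood and exact tests passed 0. At an unadjusted p under 0.05, 5 members were lower (Cyp2c54, Cyp2c50, Cyp2c37, Cyp2c68 and Cyp2c29), against 5.04% of all genes, and 0 were higher, against 4.65%. With library size alone as the scaling, the median of all genes moved to 0.0859, and genes at an unadjusted p under 0.05 went from 570 higher and 619 lower to 1395 higher and 214 lower; 8 members then kept a lower estimate, with Cyp2c39 at 0.016, and 4 were lower at that p. In bulk liver, fewer cells of a type and less RNA per cell cannot be told apart.

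**Figure D1:**
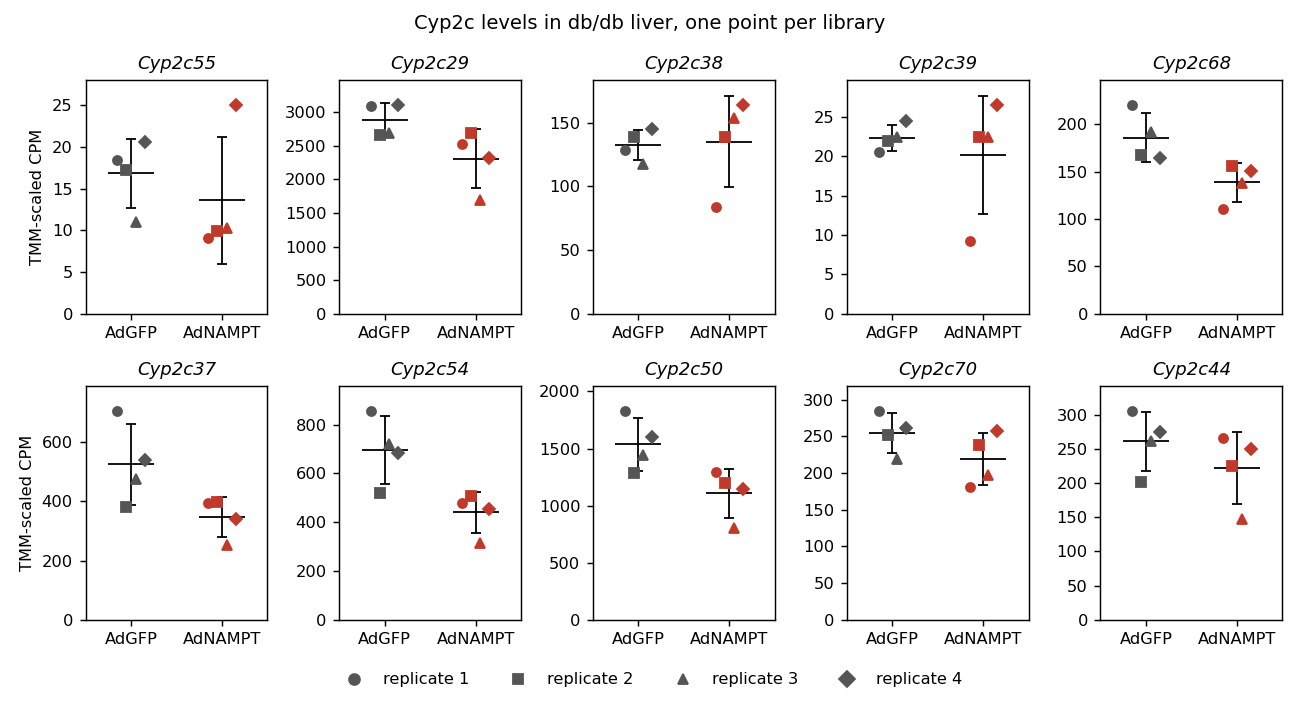
TMM-scaled CPM (vertical axes, from 0) of the 10 Cyp2c genes in each of the 4 AdGFP and 4 AdNAMPT libraries, 1 point per library with a shape per replicate number; bars are means with SD. AdNAMPT points for Cyp2c54 and Cyp2c68 all lie under the AdGFP points, whereas the groups overlap for Cyp2c38 and Cyp2c39. For Cyp2c55, AdNAMPT replicates 1 to 3 lie under the AdGFP points and replicate 4 lies above them.

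The epoxygenases Cyp2c37, Cyp2c50 and Cyp2c54, neighbours along the chromosome, had the largest differences. Cyp2c54 was at 856.0, 518.9, 721.4 and 684.6 (TMM-scaled CPM) over the AdGFP replicates in order of number, and at 480.4, 508.1, 316.8 and 455.9 over the AdNAMPT replicates, an order kept below. Every AdNAMPT library was below every AdGFP library, by a narrow margin between the closest pair, and on the deposited CPM the groups overlapped. Such a separation was seen in 2 of 10 members, Cyp2c54 and Cyp2c68, against 2.7% of all tested genes. Limma put the log2 fold change of Cyp2c54 at -0.69 (SE 0.17, adjusted p 0.225), a ratio of 0.621 with a 95% confidence interval of 0.482 to 0.799, and its unadjusted p was 0.00161. By DESeq2 it was -0.66 (adjusted p 0.033), the one alternative of 18 in which a member passed; over all of them its adjusted p lay between 0.033 and 0.515.

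Cyp2c37, an epoxygenase that makes a hydroxyeicosatetraenoic acid as well, was at 704.8, 381.4, 474.1 and 539.6 CPM in AdGFP and at 393.4, 398.3, 253.8 and 341.6 CPM in AdNAMPT. Here AdGFP replicate 2 lay inside the AdNAMPT range. Limma gave -0.63 as its log2 fold change (SE 0.18, adjusted p 0.357), a ratio of 0.647 (0.489 to 0.858). Cyp2c50, which epoxidises arachidonic and linoleic acid, was at 1829, 1282, 1443 and 1597 CPM in AdGFP and at 1294, 1195, 802.3 and 1143 CPM in AdNAMPT. AdGFP replicate 2 and AdNAMPT replicate 1 were nearly level, and the other libraries kept their side. The estimate on the log2 scale was -0.52 (SE 0.15; adjusted p 0.331 by limma). All 3 genes were lowest in AdNAMPT replicate 3; without that library the estimates were -0.51 for Cyp2c54, -0.45 for Cyp2c37 and -0.37 for Cyp2c50, each with an unadjusted p under 0.05 (limma 0.00334, 0.0197 and 0.00794). Summed over the 3 genes, the AdGFP mean was 2758 ± 499.8 CPM and the AdNAMPT mean 1896 ± 361.3 CPM (SD, n = 4 a group).

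Cyp2c29, the most abundant member and an arachidonate epoxygenase, was at 3096, 2655, 2684 and 3111 CPM in AdGFP and at 2523, 2694, 1700 and 2325 CPM in AdNAMPT. AdNAMPT replicate 2 reached the AdGFP range, while AdNAMPT replicate 3 was far below it. On the log2 scale the estimate was -0.34 (SE 0.14), with an unadjusted limma p of 0.0299 and an adjusted p of 0.487. The estimate ranged from -0.54 without AdNAMPT replicate 2 to -0.16 without AdNAMPT replicate 3. The limma unadjusted p was over 0.05 when any of 4 libraries was left out, at 0.124 without AdNAMPT replicate 3, 0.103 without AdNAMPT replicate 4, 0.0691 without AdGFP replicate 1 and 0.0755 without AdGFP replicate 4. Cyp2c44, an epoxygenase that also makes epoxyeicosatrienoic acids in kidney, was at 305.2, 201.6, 261.4 and 274.4 CPM in AdGFP and at 266.1, 224.3, 147.1 and 250.0 CPM in AdNAMPT. The groups overlapped, with AdNAMPT replicate 3 again lowest. Its estimate was -0.32 on the log2 scale (SE 0.17; adjusted p 0.577 by limma), and -0.18 without that library.

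Cyp2c68 followed another order of libraries. It was at 220.8, 167.8, 191.5 and 164.6 CPM in AdGFP and at 110.1, 156.6, 138.3 and 150.6 CPM in AdNAMPT. The groups did not overlap on this scale, but did on the deposited CPM, and AdNAMPT replicate 1 was lowest. The estimate was -0.37 (log2; SE 0.12; adjusted p 0.392 by limma), and -0.33 without AdNAMPT replicate 1. Cyp2c70, the bile acid hydroxylase, was at 284.8, 252.3, 219.9 and 261.8 CPM in AdGFP and at 181.1, 238.3, 198.0 and 257.8 CPM in AdNAMPT. Only AdNAMPT replicates 1 and 3 were below the AdGFP range. Its estimate was -0.18 (log2; SE 0.11; adjusted p 0.647 by limma), with a 95% confidence interval of -0.43 to 0.07.

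Cyp2c38 and Cyp2c39, arachidonate epoxygenases with near-identical transcripts, had estimates near 0, whose direction depended on single libraries or on the scaling and weights. Cyp2c38 was at 128.8, 139.0, 117.5 and 144.9 CPM in AdGFP and at 83.8, 138.9, 153.8 and 164.0 CPM in AdNAMPT. AdNAMPT held both the lowest library, replicate 1, and the highest, replicate 4. The log2 fold change was 0.08 (95% confidence interval -0.23 to 0.39; limma adjusted p 0.898), and it turned to -0.021 without sample weights or without AdNAMPT replicate 4. Without AdNAMPT replicate 1 it was 0.21 (limma unadjusted p 0.0477; adjusted p 0.468). Cyp2c39 was at 20.5, 22.0, 22.5 and 24.5 CPM in AdGFP and at 9.27, 22.5, 22.4 and 26.6 CPM in AdNAMPT. A single library, AdNAMPT replicate 1, lay outside the AdGFP range by much. Its log2 fold change was -0.07 (95% confidence interval -0.48 to 0.35; limma adjusted p 0.945) and turned to 0.088 without that library and to 0.016 under library size alone.

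Cyp2c55, which forms hydroxyeicosatetraenoic acids and epoxides and is best known from colon, was the scarcest member, with 113 to 425 reads a library. It was at 18.4, 17.2, 11.0 and 20.6 CPM in AdGFP and at 9.11, 9.96, 10.3 and 25.0 CPM in AdNAMPT. AdNAMPT replicates 1 to 3 were below every AdGFP library and replicate 4 was above every one. The log2 fold change was -0.37 (95% confidence interval -1.01 to 0.28; limma adjusted p 0.736), and it moved by over 1.5 times with several of the libraries left out. It was -0.71 without AdNAMPT replicate 4 (limma unadjusted p 0.00941; adjusted p 0.327) and -0.60 without AdGFP replicate 3, but -0.23 without AdNAMPT replicate 1 and -0.24 without AdGFP replicate 4, and -0.23 with the replicate number as a block.

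**Figure D2:**
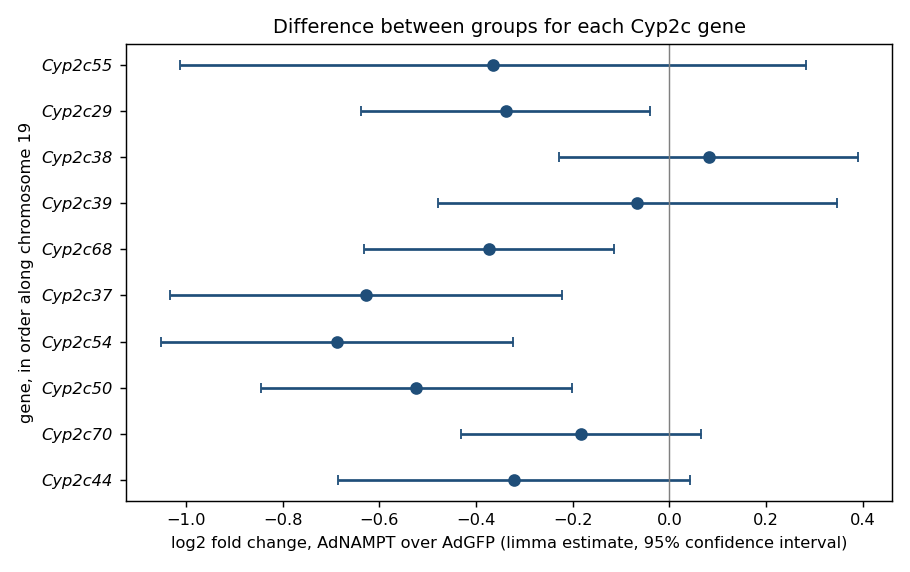
Log2 fold change of AdNAMPT over AdGFP (horizontal axis) for the 10 genes in their order along chromosome 19 (vertical axis); points are limma estimates and bars 95% confidence intervals. The intervals of Cyp2c29, Cyp2c68, Cyp2c37, Cyp2c54 and Cyp2c50 lie below 0, before adjustment over all genes.

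The members thus split by the library in which they were lowest. AdNAMPT replicate 3 was lowest for 5 genes (Cyp2c29, Cyp2c37, Cyp2c54, Cyp2c50 and Cyp2c44) and AdNAMPT replicate 1 for the other 5 (Cyp2c55, Cyp2c38, Cyp2c39, Cyp2c68 and Cyp2c70). Genes in a library share its depth and scaling, so correlations over the 8 libraries are a description. Deviations from group means correlated at 0.83 to 0.96 (Pearson) among the first 5 and at 0.23 to 0.96 among the second 5. In the second 5 the value was highest between Cyp2c38 and Cyp2c39 and lowest between Cyp2c55 and Cyp2c68. Across the sets, Cyp2c38 and Cyp2c39 correlated with the first 5 at -0.45 to -0.22, and Cyp2c55, Cyp2c68 and Cyp2c70 at 0.043 to 0.38. The sets were formed from these same levels, so the values do not test the split. In AdNAMPT replicate 1, the library with low female-biased and high male-biased genes, the first set lay above its levels in AdNAMPT replicate 3, and the second set was at its lowest. The part of that library's sex-biased profile in the levels of Cyp2c38, Cyp2c39, Cyp2c68, Cyp2c70 and Cyp2c55 was not tested.

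**Figure D3:**
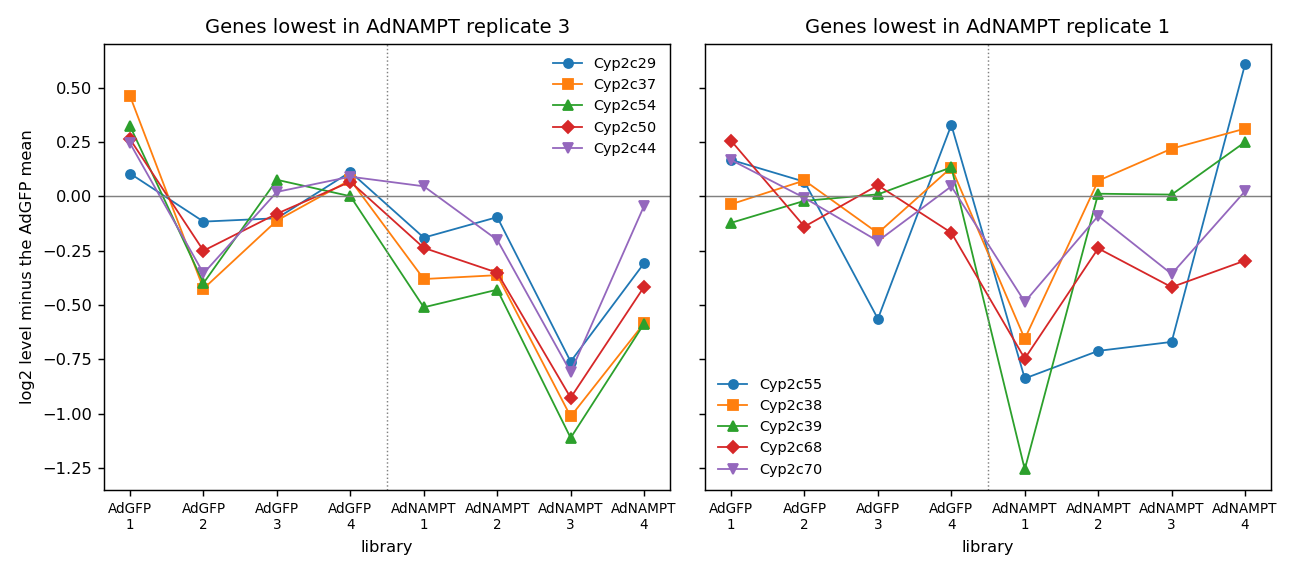
Log2 level of each gene minus its AdGFP mean (vertical axis) across the 8 libraries (horizontal axis; the dotted line divides AdGFP from AdNAMPT). The left panel holds the 5 genes lowest in AdNAMPT replicate 3 and the right panel the 5 lowest in AdNAMPT replicate 1.

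Of the other Cyp2c genes, 3 of 5 were tested. Cyp2c69 was at 52.2, 15.0, 39.0 and 17.0 CPM in AdGFP and at 1.93, 13.4, 7.92 and 20.6 CPM in AdNAMPT, with a log2 fold change of -1.45 (SE 0.54; limma adjusted p 0.453). Cyp2c40 was at 28.0 to 64.1 CPM in AdGFP and 2.02 to 41.6 CPM in AdNAMPT, and limma estimated -0.97 on the log2 scale (SE 0.54, adjusted p 0.618), or -0.56 without AdNAMPT replicate 1. Both were lowest in AdNAMPT replicate 1, as was Cyp2c68, with which their transcripts share sequence. The transcript of Cyp2c67 shares sequence with that of Cyp2c68 too (97.0% identical), but Cyp2c67 was highest in that library, at 118.4 CPM. Cyp2c67 went the other way, from 78.2 ± 7.21 to 94.3 ± 16.2 CPM (SD, n = 4 a group), and limma gave a log2 fold change of 0.22 (SE 0.10; limma adjusted p 0.507). The share of 50-base windows found in another gene was 72.1% for Cyp2c40, 54.8% for Cyp2c69 and 52.8% for Cyp2c67, above that of every member. Levels of these genes are thus less certain than those of the members. Cyp2c65 had at most 3 reads in a library and Cyp2c66 is listed at 0 throughout.

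Summed over the 10 members, AdGFP livers had 6518 ± 796.3 TMM-scaled CPM and AdNAMPT livers 4955 ± 828.4 (SD, n = 4 a group). Each AdNAMPT library was below each AdGFP library, by a narrow margin between the closest pair. These were AdNAMPT replicate 2 at 5586 CPM and AdGFP replicate 2 at 5638 CPM. On the deposited CPM the sums were 6181 ± 829.9 and 5034 ± 798.1 and overlapped, corresponding to 0.618% and 0.503% of all counts. The make-up of the sum moved little. Cyp2c29 contributed 36.6% ± 2.45 of summed RPKM in AdGFP and 38.7% ± 1.37 in AdNAMPT, and Cyp2c50 20.3% ± 0.414 and 19.5% ± 1.22. The share of Cyp2c54 was 16.1, 13.3, 16.6 and 14.4% in AdGFP and 13.0, 13.1, 12.1 and 12.7% in AdNAMPT, the only member share in which the groups did not overlap. Cyp2c38 went from 1.81% ± 0.301 to 2.52% ± 0.945, with overlap.

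**Figure D4:**
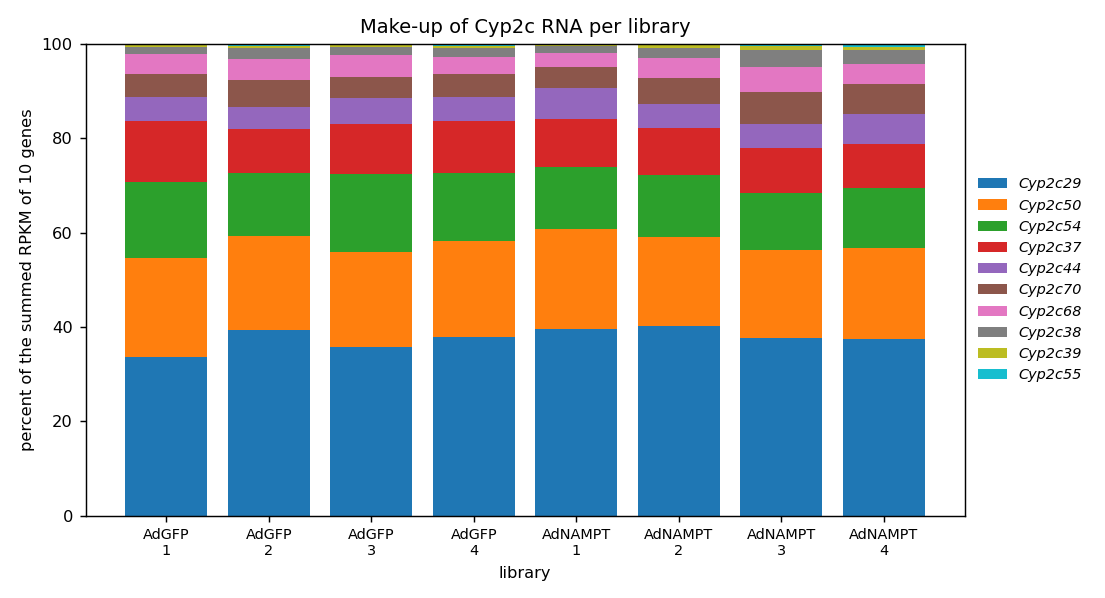
Percent of the summed RPKM of the 10 genes (vertical axis, 0 to 100) taken by each gene in each of the 8 libraries (horizontal axis). Cyp2c29 takes the largest part in every library, and the Cyp2c54 band is narrower in the 4 AdNAMPT libraries.

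Around these enzymes, lists of pathway genes were read from the same fit. Of 6 tested Cyp2j, Cyp1a and Cyp2e1 genes, which can also oxidise arachidonic acid, 0 had an unadjusted limma p under 0.05, and their median log2 fold change was -0.20. Cyp1a2 was at -0.51 (SE 0.26), Cyp2e1 at -0.27 (SE 0.15), the scarce Cyp1a1 at -0.45 (SE 0.25) and Cyp2j6 at 0.12 (SE 0.07). Both tested hydrolases of the epoxides were near 0. Ephx2 went from 693.9 ± 54.9 to 718.0 ± 67.5 CPM (SD, n = 4 a group), which limma put at 0.06 on the log2 scale (SE 0.09), and Ephx1, the microsomal form, at 0.0027 (SE 0.09). Whether the Cyp2c estimates differ from that of Ephx2 was not tested.

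In the competing routes for arachidonic acid 0 genes passed the adjusted threshold by limma. Among 12 tested Cyp4 fatty acid hydroxylases 3 were lower at an unadjusted limma p under 0.05, against 5.04% of all tested genes. They were Cyp4f15 (-0.34, SE 0.08), Cyp4f14 (-0.57, SE 0.19, or -0.32 without AdNAMPT replicate 3) and Cyp4a31 (-0.45, SE 0.18). The median of the 12 was -0.03. Among 11 cyclooxygenase and lipoxygenase genes 0 had an unadjusted limma p under 0.05, with a median of 0.07. Ptgs2 was too low to be tested. Of 12 genes that release, remodel or elongate polyunsaturated fatty acids 1 did, the elongase Elovl2 (-0.24, SE 0.11). Of 6 electron donors and their partners, Cyb5a, cytochrome b5, was at -0.27 (SE 0.08) and its reductase Cyb5r3 at 0.32 (SE 0.14), neither past the adjusted threshold by limma, and Por was at -0.19 (SE 0.14).

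Among known CAR and PXR targets the difference passed the adjusted threshold for 1 gene. Cyp2b10, the classical CAR target, went from 93.4 ± 13.1 to 40.2 ± 6.21 CPM (SD, n = 4 a group) without overlap. It fell by 1.24 on the log2 scale (SE 0.13; limma adjusted p 0.000929), and it was the only gene of the pathway lists past the threshold in this fit. Of 18 such targets 4 were lower and 0 higher at an unadjusted p under 0.05, the other 3 being Sult1e1 (-0.69, SE 0.19), Aldh1a1 (-0.29, SE 0.10) and Cyp2b13 (-1.43, SE 0.62), and the list's median was -0.21. Cyp2b13, which is on the female-biased list as well, was at 9.92 CPM in AdNAMPT replicate 1 and at 180.3 to 258.7 CPM in the other AdNAMPT libraries, and its estimate was -0.94 without that library (limma adjusted p 0.0665). With 1 library left out the lower targets at that p numbered 3 to 7, and 7 without AdNAMPT replicate 1, while Cyp2b10 stayed past the adjusted threshold, at -1.28 without that library. The transcripts of the receptors themselves were at -0.26 (SE 0.14) for Nr1i3, which encodes CAR, and -0.02 (SE 0.13) for Nr1i2, which encodes PXR. Of 18 regulators 0 passed the adjusted threshold; among those at an unadjusted p under 0.05, Foxa2 (0.47, SE 0.13) and Onecut1 (0.92, SE 0.29) were higher, and Nr0b2 (-0.33, SE 0.11) and Nr3c1 (-0.15, SE 0.07) lower. Hnf4a was at -0.02 (SE 0.13). Nr1i3, Nr1i2 and Hnf4a are named for their role and not by size of change.

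**Figure D5:**
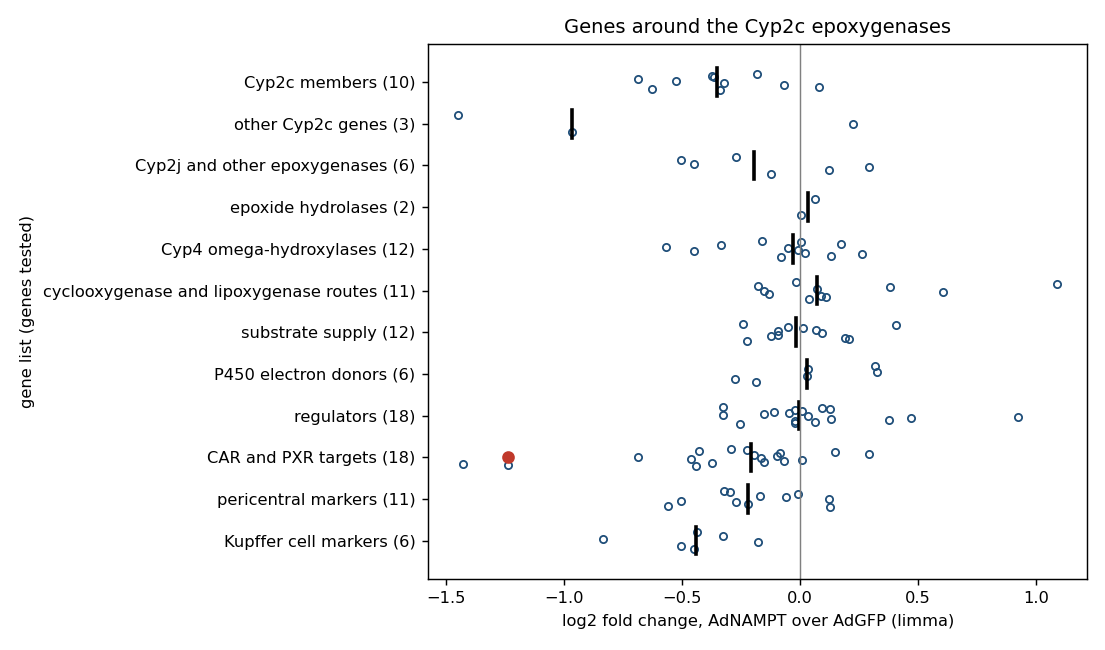
Log2 fold change of AdNAMPT over AdGFP by limma (horizontal axis) for each tested gene of 12 lists (vertical axis; number tested in brackets); open points are genes, the black bar is the list's median and the filled red point is a gene past the adjusted threshold. Only Cyp2b10, in the CAR and PXR list, is filled.

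Markers of the pericentral zone and of liver cell types were read from the same fit. Of 11 tested pericentral markers 9 were lower in estimate and 3 at an unadjusted p under 0.05 (Oat at -0.56, SE 0.21; Slc13a3 at -0.30, SE 0.10; Lhpp at -0.32, SE 0.14), with a median of -0.22, while Glul, glutamine synthetase of the innermost cells, was at 0.13 (SE 0.11). With 1 library left out, the lower markers at that p numbered 0 (without AdNAMPT replicate 3) to 5 (without AdNAMPT replicate 1 or 2). The summed pericentral level was 8203 to 11462 CPM in AdGFP and 6012 to 9852 CPM in AdNAMPT. It was lowest in AdNAMPT replicate 3, the library in which the first 5 Cyp2c genes were lowest. There Oat (2121 CPM) and Cyp2e1 (2616 CPM) made up most of the sum. The mean log2 CPM of the tested pericentral markers was lowest there too, at 6.17, but Axin2 was at its highest (7.87 CPM). Of 8 hepatocyte markers 1 was lower, Ahsg (-0.44, SE 0.13), and their median was -0.06. All 6 Kupffer cell markers were lower in estimate and 3 at an unadjusted p under 0.05 (Vsig4 at -0.51, Timd4 at -0.83 and Clec4f at -0.45). Sums of the 6 were 220.1 to 280.6 CPM in AdGFP and 149.2 to 253.5 CPM in AdNAMPT. With 1 library left out, the lower Kupffer cell markers at that p numbered 2 to 5. Without AdNAMPT replicate 2 Clec4f was at -0.22. Timd4 was scarce, at 1.70 to 5.27 CPM. Median log2 fold changes were -0.02 for 6 endothelial, 0.05 for 6 stellate and 0.04 for 5 cholangiocyte markers. In the last 2 lists Col1a1 (0.64, SE 0.24) and Sox9 (0.81, SE 0.33) were higher at an unadjusted p under 0.05. Of 6 lymphocyte and neutrophil markers 2 were tested, the neutrophil genes S100a8 and S100a9, both higher in estimate. The lymphocyte markers Cd3e, Cd3d, Cd79a and Ms4a1 were too low to be tested. None of these marker genes passed the adjusted threshold by limma, and their part in the Cyp2c levels was not tested.

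The genes most like the members over the 8 libraries were named by their Pearson r with the mean standardised log2 level of the 10. They were Proz (r 0.974, Spearman rho 0.976), Stra6l (0.973, 0.952), Agxt (0.969, 0.881), Slc6a12 (0.960, 0.833) and Ttll1 (0.954, 0.905). Proz encodes protein Z of the clotting system and Agxt a glyoxylate-detoxifying aminotransferase of hepatocytes. Genes in a library share its depth and scaling, and the 5 were picked from all tested genes as the highest. The values are thus a description.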

How the data were processed

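Liver RNA was sequenced as single reads of 50 bases from 8 mice. The authors aligned reads to GRCm38 with STAR (2.4.0b in the submitters' notes) and counted unique, unambiguous reads per gene with featureCounts (1.4.5). The labels name Ribo-Zero, whereas poly-A selection is described by the study. Deposited counts are whole numbers of reads for each gene. The deposited CPM values are counts scaled to the library total, and the deposited RPKM values divide CPM by exonic length; both were recomputed and matched. No column of the files was left unmapped. Symbols came from GENCODE M21 (40254 of 41388 features).

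Following the study, 355 ribosomal RNA features and genes not over 1 CPM in at least 3 libraries were left out, leaving 12270. TMM-scaled counts entered voomWithQualityWeights, lmFit and eBayes of limma, group being the only term, and Benjamini-Hochberg adjusted p of at most 0.05 was the threshold. The labels number separate mice, 4 a group. Replicates differed by more than sampling noise. The members and gene lists were chosen with earlier results of these data known. All members were named; from other lists every gene past the threshold was, or else up to 3 by smallest p, and genes beyond that rule were picked after their values were seen. A result for 1 listed gene is not reported here. Transcript identity and windows used GENCODE M21 transcripts, and identity is relative to the shorter transcript. Floors cover counting error only.

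The fits were tested on simulated data. Alternatives were edgeR's quasi-likelihood and exact tests, DESeq2, no sample weights, other scalings and filters, Gm42418 left out, a replicate block and each library left out. Fits used limma 3.58.1, DESeq2 1.42.0 and edgeR 4.0.16 in R 4.3.3. Sequences were aligned with edlib 1.3.9.post1, and matplotlib 3.10.9 and pandas 2.3.3 in Python 3.11.15 did the rest.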

Additional observations from a re-analysis of the deposited data

Results flagged for a closer look

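In 13 Cyp2c genes, 4 libraries a group were searched for a library far from the other 3 by Dixon's ratio, and 2 of 26 gene groups were found, where chance gives about 1.3 (1 in 20). Cyp2c55 in AdNAMPT replicate 4 was at 25.0 TMM-scaled CPM (425 reads), whereas AdNAMPT replicates 1 to 3 were at 9.11 to 10.3 CPM. Cyp2c67 in AdNAMPT replicate 1 was at 118.4 CPM (1469 reads), against 84.5 to 89.0 CPM in the others; in that same library Cyp2c40, Cyp2c69, Cyp2c68, Cyp2c38 and Cyp2c39 were at their lowest.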

How the results depend on the processing

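Across 18 alternatives, 176 of 180 member estimates kept their direction and 1 passed the adjusted threshold, Cyp2c54 under DESeq2 (1 member passed there, 0 in the other 17). The 4 reversals were Cyp2c38 at -0.0208 without sample weights and at -0.0211 without AdNAMPT replicate 4 (-0.0211 to 0.21 with 1 library left out), and Cyp2c39 at 0.0161 under library size only and at 0.0877 without AdNAMPT replicate 1 (-0.19 to 0.0877 with 1 library left out); the cause was not tested. All tested genes past the threshold numbered 34 by limma, 66 by edgeR's exact test and 75 by DESeq2, and 28 to 38 with 1 library left out. Pathway list genes past it numbered 1 by limma and 3 by edgeR's exact test and by DESeq2, and 1 to 1 with a library left out; members numbered 0 to 0. Members lower at an unadjusted p under 0.05 numbered 4 to 6 (5 by limma). With the replicate number as a block 41 genes and 0 members passed, and Cyp2c54 stayed at -0.69. Deviations from group means correlated at -0.05 to 0.23 between same-numbered libraries and at -0.30 to 0.24 between the other pairs across groups. Such few pairs cannot settle whether the numbers pair mice, which was not tested. Depth limits Cyp2c55 and Cyp2c39 most, and no member was near the floor.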
